A study of Homo sapiens with 6 samples.

Results

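The 10 genes described here belong to the epithelial-mesenchymal transition (EMT) and were measured by RNA sequencing in U87, an established human glioma cell line. They are the transcription factors SNAI1, SNAI2, TWIST1, TWIST2, ZEB1, ZEB2 and PRRX1 and the cadherins CDH1, CDH2 and CDH11. The rows were chosen by gene symbol, and all 10 were found among the 57905 rows of the files. Of these, 8 were abundant enough to be tested among 14578 tested genes, and SNAI1 and CDH11 were not. The study has 6 libraries of total RNA in 2 groups. In the siRBM47 group (3 libraries) the genotype and treatment labels name an siRNA against RBM47, an RNA-binding protein, and the protocol gives 100 pmol with lipofectamine. In the control group (3 libraries) the genotype label is WT and the treatment label is no. The same transfection protocol stands beside all 6 libraries and names no control siRNA, so an effect of transfection and one of RBM47 siRNA cannot be told apart. Nothing in the labels ties the libraries to separate cultures, and p-values therefore measure the spread between libraries, which may be technical.

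Epithelial cells hold to one another through E-cadherin, the product of CDH1, whose cytoplasmic tail is linked to actin by catenins. In EMT, repressors of the SNAIL and ZEB families bind E-box elements of CDH1 and other epithelial genes, and N-cadherin (CDH2) often replaces E-cadherin. Cells of glial and neural crest origin use N-cadherin already, so in glioma the same factors are usually studied for invasion and mesenchymal character. TWIST1 and TWIST2 are basic helix-loop-helix proteins, PRRX1 is a homeobox protein of mesenchyme, and CDH11 is a cadherin of osteoblasts and fibroblasts.

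The targeted gene did not separate the groups, and one library stood apart. RBM47 was at 3.54, 2.74 and 2.23 CPM (read counts scaled to the library size, with TMM factors) in siRBM47 replicates 1, 2 and 3, against 1.62, 1.73 and 5.75 CPM in control replicates 1, 2 and 3. No fall of RBM47 was detected (log2 fold change -0.11, SE 0.50, quasi-likelihood test of edgeR with Benjamini-Hochberg adjustment, adjusted p = 0.942), so directions below are between the libraries as labelled. With control replicate 3 left out it was 0.76 (SE 0.36, edgeR adjusted p = 0.152). Total counts ranged from 15575297 to 18128549 per library. Control replicate 3 correlated with control replicates 1 and 2 at 0.941 and 0.95 across genes, against 0.988 between those 2 libraries. Set beside siRBM47 replicates 1, 2 and 3, control replicate 3 reached 0.956, 0.959 and 0.962, each above both values within its own group. Control replicates 1 and 2 reached 0.949 to 0.965 beside the same siRBM47 replicates. Control replicate 3 was the highest of the 6 libraries for 25.4% of tested genes. Differences that were tested are therefore given with and without it. The immune markers checked were all under 1 FPKM (fragments scaled to gene length and library size) in every library. Of the 8 epithelial markers 7 were under 1 FPKM in every library, and GRHL2 had no count in any. The exception was KRT8, at 3.42 to 7.23 FPKM over the libraries. Of the 6 neuronal markers 4 were under 1 FPKM in every library, as were 4 of the 5 endothelial markers found. The others were SNAP25 (3.52 to 8.46 FPKM), GAD1 (0.969 to 2.09 FPKM) and the endothelial marker KDR (0.802 to 2.35 FPKM). The mesenchymal markers summed to 1194 to 1558 FPKM in siRBM47 and 1032 to 1245 FPKM in control libraries, with VIM and the collagen genes high and THY1 under 1 FPKM. The glial markers summed to 151 to 167 FPKM in siRBM47 and 77.8 to 417 FPKM in control libraries, most of it the gap junction gene GJA1, whose level in control replicate 3 was 405 FPKM. The part of these genes in the results was not tested. Of the 8 glial markers 5 stayed under 1 FPKM in every library, among them the astrocyte marker GFAP, and AQP4 had no count. Besides GJA1, SLC1A3 was at 4.14 to 8.82 FPKM and OLIG2 at 0.971 to 2.47 FPKM over the libraries.

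With all 6 libraries 0 of the 8 tested genes passed an adjusted p of 0.05, whether by edgeR, by DESeq2 or by limma-voom. By edgeR 2 had an unadjusted p under 0.05. These were CDH2, at a higher level in siRBM47, and TWIST1, at a lower level. Of all tested genes, edgeR called 0.220% (0.0823% higher and 0.137% lower), DESeq2 4.42% and limma-voom 0.233%, and 16.1% had an unadjusted p under 0.05 in edgeR. These are bulk libraries, in which fewer cells of a type and less RNA per cell cannot be told apart. Without control replicate 3, CDH2 and SNAI2 were called higher in siRBM47 and no member was called lower. In that fit 21.4% of all tested genes were called (10.1% higher and 11.3% lower), so 2 of 8 is near the background. An unadjusted p under 0.05 was then found for 4 of 8 members and 35.9% of tested genes. The median log2 fold change of the 8 genes was 0.16 with all libraries and 0.45 without control replicate 3, beside -0.01 and 0.02 over all tested genes.

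CDH2 (N-cadherin, ENSG00000170558, GRCh38 chromosome 18, 27950966 to 28177446, minus strand, protein-coding) joins neighbouring neural and mesenchymal cells. Its level was 79.2, 65.8 and 63.9 CPM in siRBM47 replicates 1, 2 and 3, against 37.0, 38.3 and 54.4 CPM in control replicates 1, 2 and 3. Every siRBM47 library lay above every control library, with control replicate 3 the highest of the controls. The means were 69.6 ± 8.30 CPM in siRBM47 and 43.2 ± 9.70 CPM in control (SD, n = 3 each). This is a log2 fold change of 0.69 (SE 0.21, 95% interval 0.21 to 1.16), with an adjusted p of 0.169 in edgeR. Without control replicate 3 it was 0.89 (SE 0.17, 95% interval 0.52 to 1.25, adjusted p = 0.00275, edgeR). Leaving out any other single library gave no call. Groups that do not overlap were found for 2 of the 8 tested members, CDH2 and TWIST1, and for 22.6% of all tested genes. Without control replicate 3 this held for 5 of the 8 (SNAI2, ZEB1, PRRX1, CDH2 and TWIST1) and for 54.2% of all tested genes.

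TWIST1 (ENSG00000122691, chromosome 7, 19020991 to 19117672, minus strand), which binds E-boxes as a dimer, was the member with all siRBM47 libraries low. It was at 40.8, 53.3 and 50.8 CPM in siRBM47 replicates 1, 2 and 3, against 67.4, 58.6 and 73.1 CPM in control replicates 1, 2 and 3. Each siRBM47 library was below each control library, and control replicate 3 was again the highest control. The means were 48.3 ± 6.65 CPM in siRBM47 and 66.4 ± 7.28 CPM in control (SD, n = 3 each), a log2 fold change of -0.46 (SE 0.19, 95% interval -0.88 to -0.03). The adjusted p was 0.278 with all libraries and 0.125 without control replicate 3 (edgeR), where the log2 fold change was -0.38 (SE 0.17). Unlike for CDH2, leaving out that library brought no call.

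SNAI2 (SLUG, ENSG00000019549, chromosome 8, 48917604 to 48921740, minus strand) is a zinc-finger repressor of neural crest and mesenchymal cells. It was at 262, 197 and 233 CPM in siRBM47 replicates 1, 2 and 3, against 129.8, 121 and 323 CPM in control replicates 1, 2 and 3. Control replicate 3 held the highest level of all libraries and control replicates 1 and 2 the lowest, so the groups overlapped through that library alone. The means were 231 ± 32.5 CPM in siRBM47 and 191 ± 114 CPM in control (SD, n = 3 each). With all libraries the difference on the log2 scale was 0.27 (SE 0.35, 95% interval -0.52 to 1.06), and edgeR gave an adjusted p of 0.745. Without control replicate 3 it was 0.88 (SE 0.16, 95% interval 0.54 to 1.22, adjusted p = 0.00209, edgeR). Its value in control replicate 3 exceeded the mean of the other controls by 1.36 on the log2 scale, and RBM47 exceeded it there by 1.71. The median of that difference over all tested genes was 0.01, and the median of its size was 0.49.

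SNAI1 (ENSG00000124216, chromosome 20, 49982999 to 49988886, plus strand), the founding SNAIL repressor of CDH1, was near the limit of detection. It had 1, 15 and 5 counts in siRBM47 replicates 1, 2 and 3, against 8, 4 and 38 counts in control replicates 1, 2 and 3. Control replicate 3 supplied 38 of the 50 control counts, and the groups overlapped. Its level there was 2.02 CPM, with an exact Poisson 95% interval of 1.43 to 2.78 CPM that lay above the interval of every other library, counting error only. The gene was filtered out of the main test. In the fit without a filter its log2 fold change was -1.23 (SE 0.66, adjusted p = 0.453, edgeR). That fit was not run without control replicate 3. The SNAI1 means were 0.397 CPM in siRBM47 and 0.386 CPM in control replicates 1 and 2. Per length, SNAI2 stood far above SNAI1 in every library. The lowest ratio of SNAI2 to SNAI1 was 118, in control replicate 3 (95% counting interval 85.7 to 167).

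**Figure D1:**
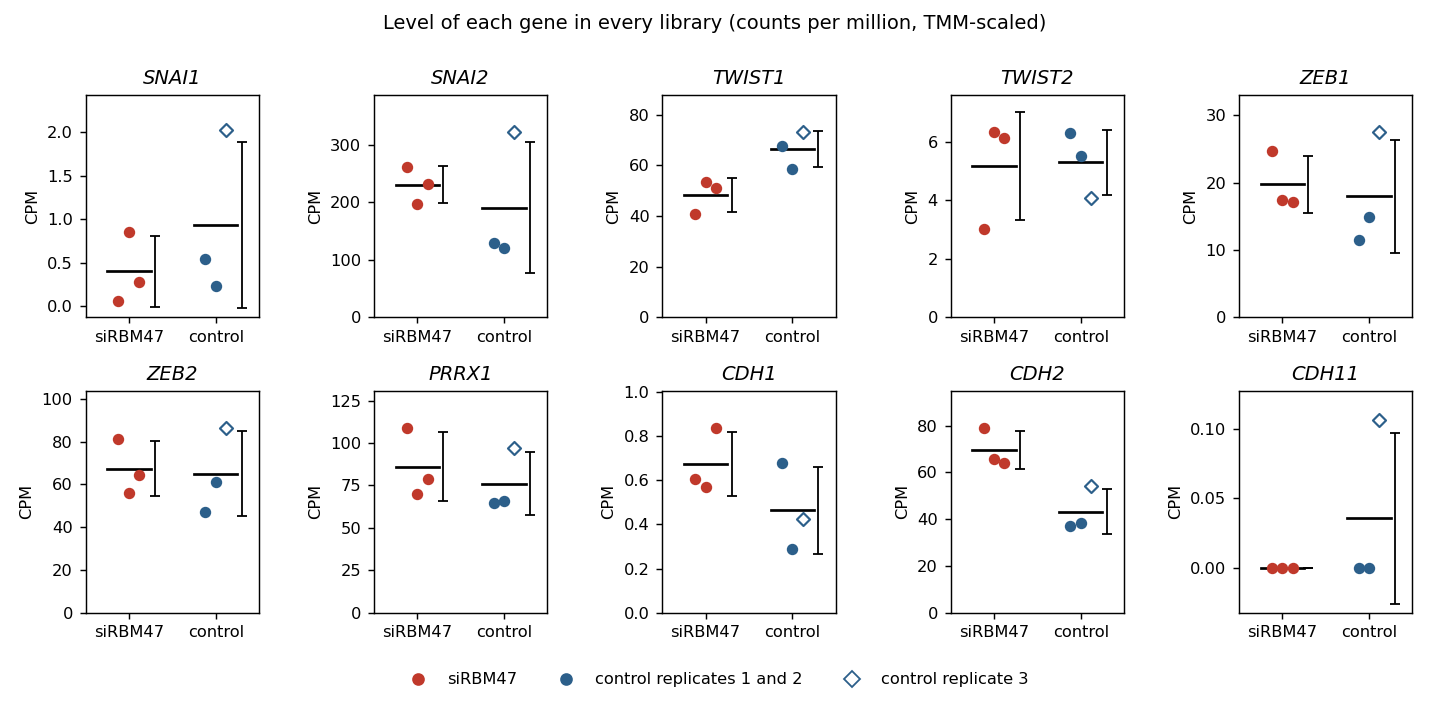
Level of each of the 10 genes in every library, in CPM on TMM-scaled library sizes, with siRBM47 left and control right in each panel. Bars are means and whiskers SD (n = 3 each); the open diamond is control replicate 3. CDH2 and TWIST1 are the tested genes whose groups do not overlap, and SNAI2 overlaps only through the diamond at 323 CPM.

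The ZEB repressors, large zinc-finger homeobox proteins that recruit the corepressor CtBP, varied mainly within the groups. ZEB1 (ENSG00000148516, chromosome 10, 31318495 to 31529814, plus strand) was at 24.7, 17.4 and 17.1 CPM in siRBM47 replicates 1, 2 and 3, against 11.5, 14.9 and 27.5 CPM in control replicates 1, 2 and 3. ZEB2 (ENSG00000169554, chromosome 2, 144364364 to 144524583, minus strand) was at 81.3, 56.0 and 64.5 CPM in siRBM47 replicates 1, 2 and 3, against 47.3, 61.3 and 86.6 CPM in control replicates 1, 2 and 3. For both genes control replicate 3 was the highest library, siRBM47 replicate 1 the second and control replicate 1 the lowest, and the groups overlapped. For ZEB1 the log2 difference was 0.13 (SE 0.33, 95% interval -0.60 to 0.86) with an edgeR adjusted p of 0.876, and leaving out control replicate 3 made it 0.58 (SE 0.23, edgeR adjusted p = 0.0825). For ZEB2 it was 0.05 (SE 0.25, 95% interval -0.52 to 0.61) with an edgeR adjusted p of 0.949, and leaving out that library made it 0.31 (SE 0.19, edgeR adjusted p = 0.270). Neither gene was called in either fit.

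The library kit does not keep strand, which bears on the ZEB genes because each has an antisense partner at its start. Opposite-strand genes overlap 4.23% of the exon length of ZEB1 and 5.18% of that of ZEB2. The row of ZEB1-AS1, the antisense RNA at the start of ZEB1, held 51, 37 and 31 counts in siRBM47 replicates 1, 2 and 3, against 31, 43 and 111 in control replicates 1, 2 and 3. ZEB1-AS1 was thus highest in the same library as ZEB1. The row of ZEB2-AS1 held 3 counts in siRBM47 replicate 1 and 1 count in control replicate 3, and none in the other libraries. Opposite-strand overlaps were 6.94% for TWIST1, 5.62% for CDH1 and 2.75% for CDH2, and 0 for SNAI1, SNAI2, TWIST2, PRRX1 and CDH11.

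SNAIL and ZEB proteins recognise the E-box form CACCTG, read as CAGGTG on the other strand, within the general E-box CANNTG. RefSeq windows (GRCh38.p14) of 250 bases before an annotated start were matched for 5 of the 10 genes, 12 windows in all; SNAI1, SNAI2, TWIST1, CDH1 and CDH11 had no match. CANNTG was searched once because it reads the same on both strands. It was present in 61.8% of all 35116 windows, and CACCTG or CAGGTG, which are among its forms, in 17.5%. Among the 12 windows CACCTG or CAGGTG was found in 2, both of ZEB1. The 2 windows of CDH2 and the single windows of ZEB2, PRRX1 and TWIST2 did not hold these letters. The ZEB1 windows are shown because they hold the form that the ZEB and SNAIL factors recognise. The window of the first ZEB1 start is chr10:31318167-31318416, plus strand, with its CANNTG forms in capitals, and the 2 forms of window 3 are shown with their flanks (sites at chr10:31318966-31318989 and chr10:31319121-31319146).
ZEB1 first start: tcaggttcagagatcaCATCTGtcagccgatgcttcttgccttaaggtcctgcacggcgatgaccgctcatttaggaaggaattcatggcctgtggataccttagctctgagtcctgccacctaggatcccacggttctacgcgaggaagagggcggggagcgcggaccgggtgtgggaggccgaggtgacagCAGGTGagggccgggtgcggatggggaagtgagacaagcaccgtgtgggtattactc
ZEB1 window 3, distal: ccccaccaCACCTGaggaaaactt
ZEB1 window 3, proximal: tgtcgtaaacCAGGTGcggtggggag
The CAGGTG of the first window begins 57 bases before that start, and the forms of window 3 begin 242 and 85 bases before theirs. A match of letters is a description of the window and says nothing on binding in these cells.

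PRRX1 (ENSG00000116132, chromosome 1, 170662728 to 170739419, plus strand) was at 109, 70.2 and 78.8 CPM in siRBM47 replicates 1, 2 and 3, against 64.9, 65.8 and 97.4 CPM in control replicates 1, 2 and 3. The highest library was siRBM47 replicate 1 and the next control replicate 3, so the groups overlapped. In edgeR PRRX1 differed by 0.18 on the log2 scale (SE 0.24, 95% interval -0.36 to 0.72) at an adjusted p of 0.755. Leaving out control replicate 3 gave 0.40 (SE 0.19, edgeR adjusted p = 0.151). TWIST2 (ENSG00000233608, chromosome 2, 238848032 to 238910543, plus strand) was at 3.04, 6.34 and 6.14 CPM in siRBM47 replicates 1, 2 and 3, against 6.30, 5.52 and 4.10 CPM in control replicates 1, 2 and 3. Here siRBM47 replicate 1 was the lowest library and control replicate 3 the next lowest, the reverse of their places for PRRX1. Between the groups TWIST2 differed by -0.03 on the log2 scale (SE 0.34, 95% interval -0.80 to 0.73) at an adjusted p of 0.972 in edgeR, and by -0.19 (SE 0.31, adjusted p = 0.700 in edgeR) with control replicate 3 left out. The interval of its ratio, 0.58 to 1.66, includes a change in either direction.

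CDH1 (E-cadherin, ENSG00000039068, chromosome 16, 68737225 to 68835548, plus strand) was barely detected. It had 11, 10 and 15 counts in siRBM47 replicates 1, 2 and 3, against 10, 5 and 8 counts in control replicates 1, 2 and 3, which is 0.672 ± 0.145 CPM in siRBM47 and 0.464 ± 0.197 CPM in control (SD, n = 3 each). The groups overlapped at control replicate 1. On the log2 scale the difference was 0.55 (SE 0.51, 95% interval -0.59 to 1.68) at an edgeR adjusted p of 0.636, so no difference was detectable at this depth. Its ratio had an interval of 0.67 to 3.21. Leaving out control replicate 3 gave 0.50 (SE 0.59, edgeR adjusted p = 0.577). CDH11 (ENSG00000140937, chromosome 16, 64943753 to 65126112, minus strand) had 0 counts in 5 libraries and 2 counts in control replicate 3. A count of 0 allows up to 3 counts, which is 0.166 to 0.171 CPM in siRBM47 and 0.173 to 0.203 CPM in control replicates 2 and 1. No fold is given for it.

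**Figure D2:**
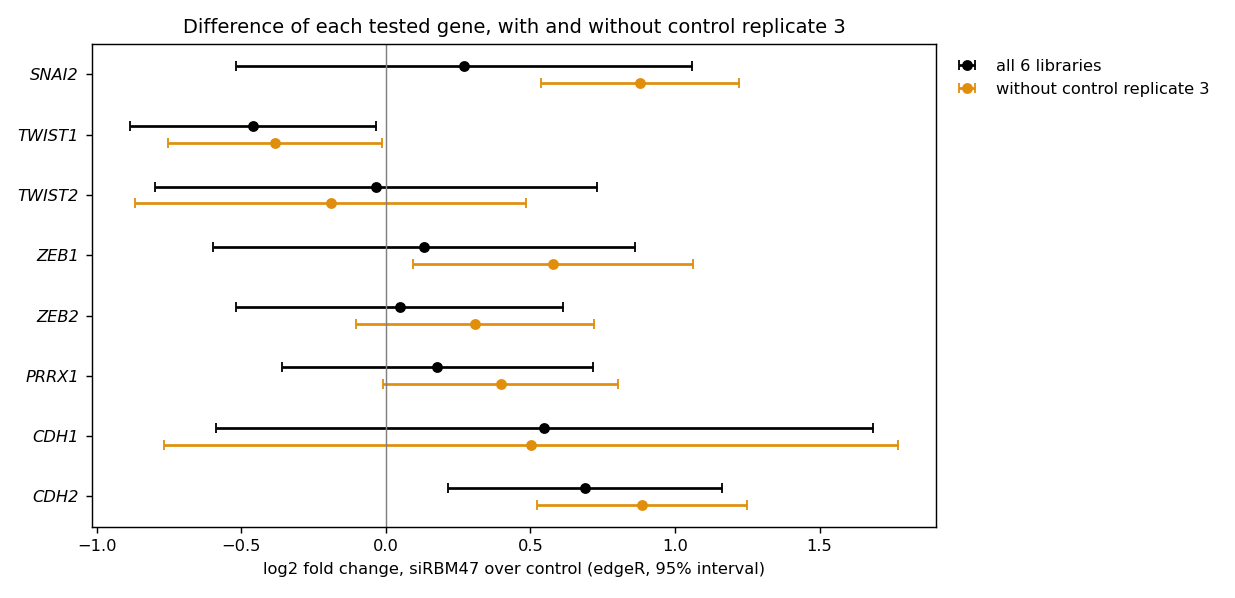
Log2 fold change, siRBM47 over control, of the 8 tested genes by the edgeR quasi-likelihood fit over all genes, with 95% intervals. Black points use all 6 libraries and orange points leave out control replicate 3. The SNAI2 estimate is 0.27 with all libraries and 0.88 without that library, while TWIST1 stays at -0.46 and -0.38.

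Levels of different genes can be set side by side per length, in the deposited FPKM, but they depend on the gene length used. The length implied by the FPKM was under the GENCODE exon length for SNAI2 (2298 against 3392 bases) and TWIST2 (1184 against 1878). The same held for ZEB2 (18030 against 25058) and CDH11 (10461 against 13381). For the other members the lengths were close. Ratios per length share this limit, which their counting intervals do not cover. In siRBM47 the order was SNAI2 (101 ± 14.9 FPKM), TWIST1 (23.6 ± 3.13), CDH2 (13.99 ± 1.72), PRRX1 (10.4 ± 2.52), TWIST2 (4.37 ± 1.55), ZEB2 (3.74 ± 0.738), ZEB1 (2.29 ± 0.509), SNAI1 (0.233 ± 0.241), CDH1 (0.109 ± 0.0239) and CDH11, listed at 0 (SD, n = 3). The ranges of CDH2 and PRRX1, of TWIST2 and ZEB2, and of SNAI1 and CDH1 overlapped, and the other neighbours were apart. In control the order was the same except that PRRX1 (9.11 ± 2.16 FPKM) stood before CDH2 (8.63 ± 1.89), with overlapping ranges (SD, n = 3). SNAI2 and TWIST1 were thus the highest of the 10 genes in both groups, at 82.6 ± 48.8 and 32.3 ± 3.40 FPKM in control. In control the ranges of TWIST2 and ZEB2 overlapped, as did those of ZEB2 and ZEB1.

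Within a gene pair, the ratio per length removes what scales all genes of a library alike. The ratio of ZEB2 to ZEB1 was 1.57, 1.54 and 1.80 in siRBM47 replicates 1, 2 and 3, against 1.97, 1.97 and 1.504 in control replicates 1, 2 and 3. The lowest ratio was that of control replicate 3, and without it the groups would not overlap. The ratio of TWIST1 to TWIST2 was 7.76, 4.86 and 4.79 in siRBM47 replicates 1, 2 and 3, against 6.20, 6.14 and 10.3 in control replicates 1, 2 and 3, with no separation of the groups. The ratio of CDH2 to CDH1 was 162, 143 and 94.8 in siRBM47 replicates 1, 2 and 3, against 67.9, 166 and 159 in control replicates 1, 2 and 3. Its 95% counting intervals all overlapped one another, the lowest bound being 36.6 and the highest 512, because CDH1 has so few counts.

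**Figure D3:**
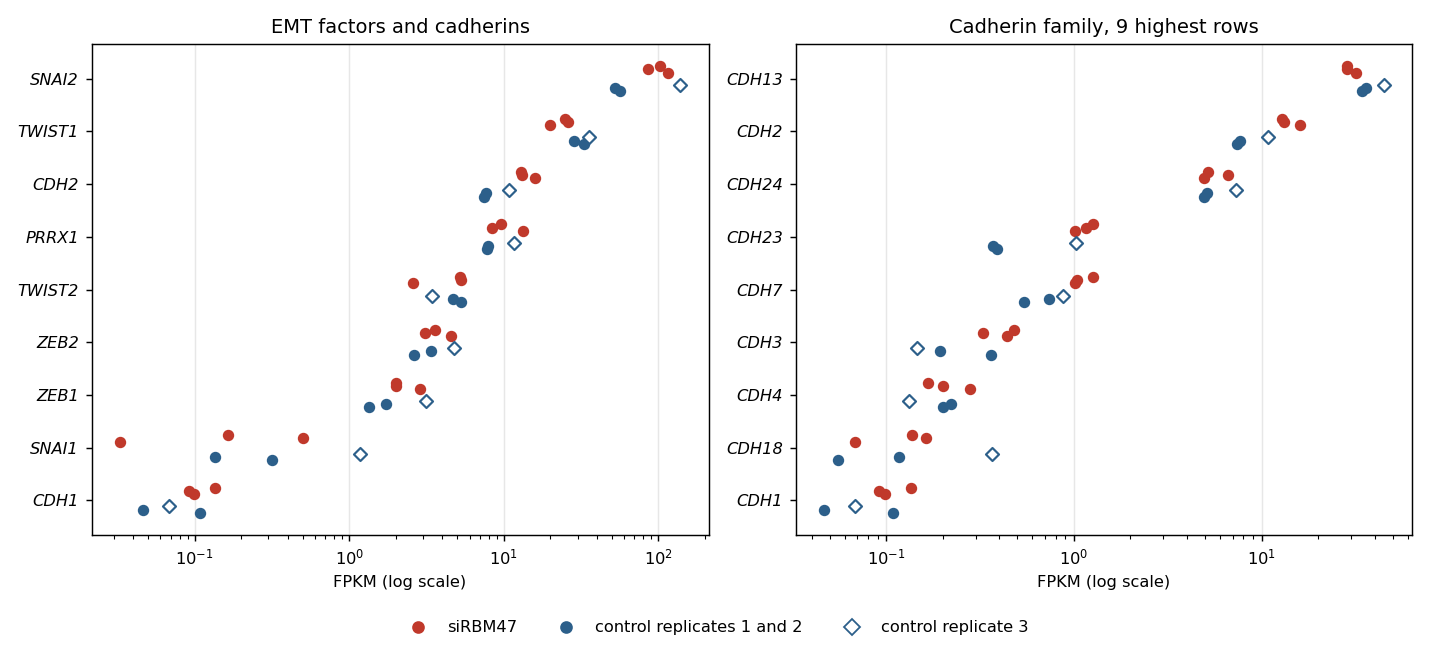
Deposited FPKM on a log axis, with siRBM47 above control in each row. Left, the genes in the order of their siRBM47 mean, without CDH11, which is at 0 in 5 libraries; right, the 9 highest cadherins with a value in every library. SNAI2 and TWIST1 lead on the left, and CDH13 and CDH2 on the right.

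Among 23 cadherin genes found in the files, 18 were under 1 FPKM in every library, CDH1 and CDH11 among them. The highest was CDH13 (T-cadherin, which is held in the membrane by a lipid anchor and has no catenin-binding tail), followed by CDH2 and CDH24, a type II cadherin. CDH13 was at 31.8, 28.3 and 28.5 FPKM in siRBM47 replicates 1, 2 and 3, against 34.4, 35.9 and 45.1 FPKM in control replicates 1, 2 and 3, so its groups did not overlap either, in the direction opposite to CDH2. In CPM its log2 fold change was -0.39 (SE 0.18, adjusted p = 0.331, edgeR), and -0.25 (SE 0.14, edgeR adjusted p = 0.204) with control replicate 3 left out. CDH2 made up 28.7%, 25.6% and 25.6% of the summed cadherin FPKM in siRBM47 replicates 1, 2 and 3, against 15.2%, 15.2% and 16.4% in control replicates 1, 2 and 3. For this share control replicate 3 lay with the other controls. The ratio of CDH2 to CDH13 was 0.472 ± 0.0260 in siRBM47 and 0.223 ± 0.0143 in control (SD, n = 3 each). The share and this ratio were chosen after the values were seen and are given without a test.

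**Figure D4:**
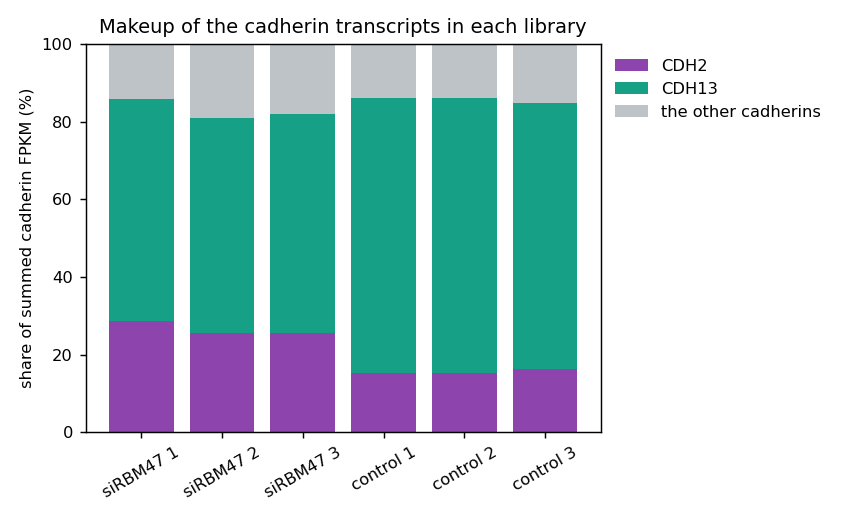
Share of the summed FPKM of 23 cadherin genes taken by CDH2, CDH13 and the rest, in percent, for each library. CDH2 takes 25.6% to 28.7% in siRBM47 libraries and 15.2% to 16.4% in control libraries, and CDH13 takes 55.4% to 57.1% in siRBM47 libraries and 68.3% to 70.9% in control libraries.

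Of the other cadherins, 7 of 20 were tested, with 0 called by any of edgeR, DESeq2 and limma-voom. In edgeR 1 had an unadjusted p under 0.05, beside 16.1% of all tested genes. That gene was CDH23, a long cadherin known from hair-cell tip links, at 17.5, 20.3 and 21.9 CPM in siRBM47 replicates 1, 2 and 3, against 6.77, 6.503 and 18.2 CPM in control replicates 1, 2 and 3. Its groups overlapped only at control replicate 3. The log2 fold change was 0.92 (SE 0.38, adjusted p = 0.277, edgeR), and 1.58 (SE 0.21, adjusted p = 0.000278, edgeR) without that library. CDH7, a type II cadherin of neural tissue, was at 5.69, 5.89 and 7.04 CPM in siRBM47 replicates 1, 2 and 3, against 3.05, 4.14 and 4.95 CPM in control replicates 1, 2 and 3. Its groups did not overlap, and edgeR gave a log2 fold change of 0.61 (SE 0.28, adjusted p = 0.324), or 0.78 (SE 0.28, adjusted p = 0.0574) with control replicate 3 left out.

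Catenins and adherens junction proteins connect cadherin tails to actin. Of 20 listed, 18 were tested and 0 passed by edgeR, with 1 at an unadjusted p under 0.05, 1 by DESeq2 and 0 by limma-voom; the median log2 fold change was 0.02. Leaving out control replicate 3 gave 4 called higher and 1 lower. The shares of all tested genes were 4.42% by DESeq2, 16.1% at that unadjusted p, and 10.1% higher and 11.3% lower without that library (edgeR). NECTIN2, an immunoglobulin-type adhesion molecule, was at 51.2, 72.9 and 57.0 CPM in siRBM47 replicates 1, 2 and 3, against 102, 109 and 87.4 CPM in control replicates 1, 2 and 3 (log2 fold change -0.72, SE 0.20, adjusted p = 0.139, edgeR). The groups of NECTIN2 did not overlap. NECTIN3 averaged 28.1 ± 11.5 CPM in siRBM47 and 17.0 ± 6.48 CPM in control, and the actin linker VCL averaged 388 ± 26.4 CPM in siRBM47 and 281 ± 103 CPM in control (SD, n = 3 each). The groups overlapped for both genes, with log2 fold changes of 0.72 (SE 0.34, adjusted p = 0.335, edgeR) for NECTIN3 and 0.47 (SE 0.25, adjusted p = 0.401, edgeR) for VCL. All 3 genes were called by edgeR with control replicate 3 left out, NECTIN2 at -0.80 (adjusted p = 0.00551), NECTIN3 at 1.07 (adjusted p = 0.0153) and VCL at 0.80 (adjusted p = 0.00217).

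Epithelial genes, the usual targets of repression in EMT, had no common direction. Of 30 listed, 15 were tested and 0 passed by edgeR or limma-voom and 1 by DESeq2, with 2 higher and 3 lower at an unadjusted p under 0.05. The median log2 fold change was -0.14 with all libraries and -0.14 without control replicate 3, where 1 was called higher and 1 lower. Over all tested genes the shares were 4.42% by DESeq2, 16.1% at that unadjusted p, and 10.1% higher and 11.3% lower without that library (edgeR). MUC1, a membrane mucin, was at 13.6, 14.9 and 10.4 CPM in siRBM47 replicates 1, 2 and 3, against 5.62, 3.05 and 6.33 CPM in control replicates 1, 2 and 3 (log2 fold change 1.37, SE 0.31, adjusted p = 0.0966, edgeR). The junction protein F11R was at 22.6, 22.6 and 20.9 CPM in siRBM47 replicates 1, 2 and 3, against 33.8, 31.1 and 37.6 CPM in control replicates 1, 2 and 3 (log2 fold change -0.63, SE 0.18, adjusted p = 0.146, edgeR). Neither gene's groups overlapped, and the 2 went in opposite directions. CLDN4, a claudin, was low at 0.542 ± 0.307 CPM in siRBM47 and 1.93 ± 0.983 CPM in control (SD, n = 3 each), a log2 fold change of -1.82 (SE 0.56, adjusted p = 0.168, edgeR). With control replicate 3 left out, edgeR called MUC1 at 1.59 (adjusted p = 0.00207) and F11R at -0.56 (adjusted p = 0.0339), while CLDN4 was not called at -1.35 (adjusted p = 0.0904).

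Of the mesenchymal genes, most lay higher in siRBM47. Of 30 listed, 27 were tested and with all libraries 1 passed by edgeR (TAGLN, higher), 2 by DESeq2 and 1 by limma-voom, beside 7 higher and 2 lower at an unadjusted p under 0.05. The median log2 fold change was 0.49, against -0.01 over all tested genes, and 20 were positive and 7 negative. This list was chosen with earlier results of these data known. The median was 0.89 without control replicate 3, against 0.02 over all tested genes, with 15 called higher and 2 lower. Of all tested genes 16.1% had an unadjusted p under 0.05 in either direction, and 10.1% were called higher and 11.3% lower without that library (edgeR). With all libraries the called share of tested genes was 0.220% by edgeR, 4.42% by DESeq2 and 0.233% by limma-voom. In control replicate 3 the genes of this list exceeded the mean of the other controls by a median of 0.84 on the log2 scale, against 0.01 over all tested genes. TAGLN, which binds actin and marks smooth muscle, was at 93.8, 123 and 110 CPM in siRBM47 replicates 1, 2 and 3, against 29.1, 29.5 and 46.6 CPM in control replicates 1, 2 and 3 (log2 fold change 1.63, SE 0.24, adjusted p = 0.0370, edgeR). Its call was lost without any one library other than control replicate 3 (adjusted p = 0.0693 to 0.222, edgeR). In those fits its log2 fold change was 1.52 to 1.73. They called 19 and 12 of all tested genes without control replicates 1 and 2, and 0 without any one siRBM47 library. With control replicate 3 left out TAGLN was at 1.89 (SE 0.18, edgeR adjusted p = 1.42e-05).

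**Figure D5:**
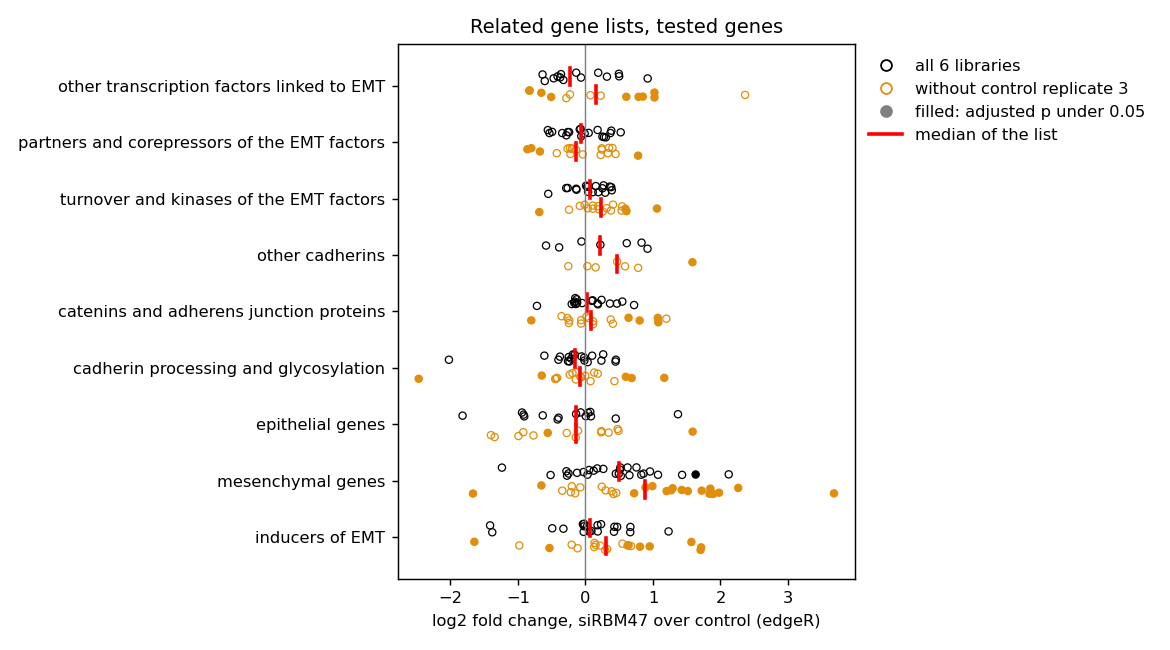
Log2 fold change, siRBM47 over control, of the tested genes of 9 related lists; black, all 6 libraries, orange, without control replicate 3. Filled points passed an adjusted p of 0.05 (edgeR) and red bars are medians. TAGLN is the single filled black point, and the mesenchymal list has medians of 0.49 and 0.89.

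Other transcription factors linked to EMT followed no common direction. Of 20 listed, 14 were tested and 0 passed by edgeR or limma-voom and 1 by DESeq2, with 1 higher and 1 lower at an unadjusted p under 0.05. The median log2 fold change was -0.23, and 0.15 without control replicate 3, where 5 were called higher and 4 lower. Among all tested genes these shares were 4.42% by DESeq2, 16.1% at that unadjusted p, and 10.1% higher and 11.3% lower without that library (edgeR). SOX9, a factor of neural crest and cartilage, was at 46.5, 45.7 and 30.9 CPM in siRBM47 replicates 1, 2 and 3, against 21.3, 19.05 and 24.5 CPM in control replicates 1, 2 and 3. Its groups did not overlap (log2 fold change 0.92, SE 0.22, adjusted p = 0.106, edgeR). YBX1, a cold-shock protein that binds mRNA, averaged 907 ± 147 CPM in siRBM47 and 1409.7 ± 360 CPM in control, and the chromatin protein HMGA2 averaged 81.1 ± 26.7 CPM in siRBM47 and 123 ± 36.3 CPM in control (SD, n = 3 each). Their log2 fold changes were -0.64 (SE 0.24, adjusted p = 0.237, edgeR) for YBX1 and -0.60 (SE 0.29, adjusted p = 0.349, edgeR) for HMGA2, and their groups overlapped. With control replicate 3 left out all 3 genes were called by edgeR, SOX9 at 1.02 (adjusted p = 0.00428), YBX1 at -0.83 (adjusted p = 0.00209) and HMGA2 at -0.83 (adjusted p = 0.0145). Per length YBX1 (467 FPKM in siRBM47 and 723 FPKM in control) stood above SNAI2 in mean level, and HIF1A (84.1 FPKM in siRBM47 and 107 FPKM in control) above TWIST1. HIF1A, the hypoxia factor, is named here after its values were seen. It was at 46.6, 50.6 and 224 FPKM in control replicates 1, 2 and 3, so its control mean rests mostly on replicate 3. That mean also lay above the control mean of SNAI2 (82.6 FPKM). In edgeR the log2 fold change of HIF1A was -0.36 (SE 0.54, adjusted p = 0.786). Without control replicate 3 it turned to 0.79 (SE 0.20, adjusted p = 0.0139, edgeR).

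Inducers of EMT were likewise split. All 20 listed were tested and 0 passed by edgeR or limma-voom and 2 by DESeq2, with 4 higher and 2 lower at an unadjusted p under 0.05. The median log2 fold change was 0.07, and 0.31 with control replicate 3 left out, where 6 were called higher and 2 lower. All tested genes had shares of 4.42% by DESeq2, 16.1% at that unadjusted p, and 10.1% higher and 11.3% lower without that library (edgeR). The receptor NOTCH1 was at 3.42, 6.11 and 5.42 CPM in siRBM47 replicates 1, 2 and 3, against 15.03, 16.2 and 8.68 CPM in control replicates 1, 2 and 3 (log2 fold change -1.41, SE 0.32, adjusted p = 0.0977, edgeR). TGFBR2, a receptor of TGF-beta, lay the other way, with a log2 fold change of 1.23 (SE 0.30, adjusted p = 0.110, edgeR), at 229.6, 218 and 228 CPM in siRBM47 replicates 1, 2 and 3, against 65.1, 73.0 and 149.5 CPM in control replicates 1, 2 and 3. SMAD3, which carries the TGF-beta signal to the nucleus, averaged 47.4 ± 3.61 CPM in siRBM47 and 66.6 ± 3.90 CPM in control (SD, n = 3 each). The log2 fold change of SMAD3 was -0.49 (SE 0.17, adjusted p = 0.214, edgeR). For each of these 3 genes the groups did not overlap. Leaving out control replicate 3, edgeR called NOTCH1 at -1.65 (adjusted p = 0.000679), TGFBR2 at 1.71 (adjusted p = 1.03e-05) and SMAD3 at -0.53 (adjusted p = 0.0277).

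For the 3 members with the highest mean FPKM, the genes with the most alike pattern were sought by Pearson's r of log2 CPM over the 6 libraries, among 9611 other genes. For SNAI2 they were ELP2, CDC42BPA and FOXO3, at an r of 0.998, 0.998 and 0.996, and 7.01% of genes had an r over 0.9. Pearson's r leaves the size of a difference aside. ELP2 ran from 26.5 to 32.5 CPM over the libraries, and SNAI2 from 121 to 323 CPM. For TWIST1 they were MED8, TTC23 and CLSTN3 (r of 0.998, 0.987 and 0.985), with 2.20% of genes over 0.9. For CDH2 they were KCTD4, FHL2 and ZNF365 (0.998, 0.996 and 0.996), with 5.15% of genes over 0.9. FHL2 was at 327, 299 and 297 CPM in siRBM47 replicates 1, 2 and 3, against 202, 209 and 268 CPM in control replicates 1, 2 and 3. The 6 points, which share 2 groups and 1 outlying library make high correlations easy to reach, and the values are a description.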

How the data were processed

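Total RNA of 6 U87 libraries, 3 siRBM47 and 3 control by their titles, was sequenced. Per the submitters' processing notes, the tools were HISAT2 2.0.5 and featureCounts 1.5.0-p3 and the build was hg38. The sources used here do not give the annotation release or strand setting. Per the file headers, each deposited table gives 1 library as raw counts and as FPKM. Counts were tested; FPKM were used to compare genes per length, and ratios within a pair are of counts over gene lengths worked out from counts and FPKM (exact binomial intervals). A gene-name table gave symbols for 51996 of 57905 identifiers, and GENCODE release 29 on GRCh38 gave positions and overlaps. Libraries of a group differed beyond counting noise, by a chi-square statistic of 10.74 to 144.83 per degree of freedom (genes with at least 20 counts). Same-numbered libraries were treated as unpaired in the main test. Their deviations from the group means correlated at -0.04, 0.13 and 0.12. With 3 libraries per group these values cannot decide whether the libraries were paired.

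Genes kept by filterByExpr (minimum count 10) were tested with edgeR 4.0.16 (R 4.3.3, TMM, quasi-likelihood, Benjamini-Hochberg over 14578 genes, threshold 0.05). CDH1 was close to the filter. Standard errors are the size of the log2 fold change divided by the root of F. Alternatives were RLE and upper quartile scaling, DESeq2 1.42.0, limma-voom 3.58.1, a minimum count of 50, no filter, leaving out 1 library at a time, and a replicate block. The steps were tested on simulated data of 6 libraries, with 200 of 14578 genes changed. There 29.3% of 2-fold and 86.6% of 4-fold changes were called, and 2 of 115 calls were false. Many 2-fold changes were thus missed in the simulation. Each gene was drawn independently there, so no simulated library stood apart across genes as control replicate 3 does. These rates therefore need not hold for the 6 libraries here. Members and lists were chosen with earlier results of these data known. Named were all members, RBM47, the 3 genes most alike to each of the 3 members highest in FPKM (mean log2 CPM at least 3), and of each list the genes past the threshold or else the 3 smallest p; a gene of 2 lists counts in both. An item that this rule takes is left out of the text. Intervals of counts and of ratios within a library, and limits from a count of 0, cover counting error only.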

Additional observations from a re-analysis of the deposited data

How the results depend on the processing

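The count of members called was 0 with RLE and upper quartile scaling, DESeq2, limma-voom, no filter, a minimum count of 50 and a replicate block, and 0 to 2 when 1 library was left out, the 2 being SNAI2 and CDH2 without control replicate 3. DESeq2 gave CDH1 no adjusted p, and a minimum count of 50 did not test it. Over all genes the count was 32, against 644 by DESeq2, 804 with no filter and 39 with the replicate block; the cause was not tested. It was 0 to 3117 with 1 library left out: 19 and 12 without control replicates 1 and 2, 3117 without control replicate 3, and 0 without any one siRBM47 library (edgeR; 1445 to 1816 genes at an unadjusted p under 0.05). Whether libraries of the same replicate number belong together is not known. By deviations from the group means, control replicate 1 correlated best with siRBM47 replicate 2 (0.20). No member changed direction under the scaling, test, filter or block alternatives that gave it a value, where CDH2 ran from 0.69 to 0.70 (adjusted p = 0.0712 to 0.215) and TWIST1 from -0.46 to -0.45 (0.246 to 0.437) on the log2 scale. With 1 library left out, direction turned for TWIST2 (-0.20 to 0.24), ZEB1 (-0.091 to 0.58), ZEB2 (-0.12 to 0.31) and PRRX1 (-0.029 to 0.40), none called. SNAI2 then ran from 0.04 to 0.88, CDH2 from 0.58 to 0.89, CDH1 from 0.31 to 0.91 and TWIST1 from -0.53 to -0.35. The order of the 10 genes by level in control was the same for all 10 without replicate 3. It was also the same in TPM in each group. TPM rescales all FPKM of a library by a common factor, so the order within a library cannot change and this is no separate check. Depth limits SNAI1, CDH1 and CDH11.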

Other observations

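Partners and corepressors of the EMT factors, such as CtBP, histone deacetylases and the LSD1 complex, went both ways. All 19 listed were tested, with 0 called by any of edgeR, DESeq2 and limma-voom. In edgeR 0 had an unadjusted p under 0.05, and the log2 fold changes ran from -0.56 (SUV39H1) to 0.52 (KAT2B) with a median of -0.06. Groups did not overlap for 4 higher and 4 lower genes of the 19, against 22.6% of all tested genes. Leaving out control replicate 3, 1 was called higher and 3 lower, with a median of -0.14. For all tested genes the shares were 16.1% at that unadjusted p, and 10.1% higher and 11.3% lower without that library (edgeR). RCOR1, a scaffold of the LSD1 complex, averaged 80.5 ± 4.45 CPM in siRBM47 and 61.7 ± 5.50 CPM in control. KAT2B, a histone acetyltransferase, averaged 22.0 ± 1.43 CPM in siRBM47 and 15.3 ± 4.39 CPM in control, and SMARCA4, a chromatin remodelling ATPase, averaged 91.2 ± 20.6 CPM in siRBM47 and 128 ± 29.7 CPM in control (SD, n = 3 each). By edgeR their log2 fold changes were 0.38 (adjusted p = 0.315) for RCOR1, 0.52 (adjusted p = 0.323) for KAT2B and -0.49 (adjusted p = 0.354) for SMARCA4. With control replicate 3 left out these were 0.45 (adjusted p = 0.0544), 0.78 (adjusted p = 0.0113) and -0.67 (adjusted p = 0.0168) for the same genes in that order.

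Kinases and ubiquitin ligases that set the stability of the factors had 18 of 19 listed genes tested and 0 called by any of edgeR, DESeq2 and limma-voom. In edgeR 1 had an unadjusted p under 0.05, and the median log2 fold change was 0.07. Leaving out control replicate 3, 3 were called higher and 1 lower, with a median of 0.23. Across all tested genes the shares were 16.1% at that unadjusted p, and 10.1% higher and 11.3% lower without control replicate 3 (edgeR). The gene with an unadjusted p under 0.05, the casein kinase CSNK1E, averaged 180 ± 23.1 CPM in siRBM47 and 264 ± 44.2 CPM in control, and its groups did not overlap. Its log2 fold change was -0.55 (SE 0.20, adjusted p = 0.222, edgeR), and -0.68 (SE 0.15, edgeR adjusted p = 0.00577) without that library. The ubiquitin ligase SIAH1 averaged 19.8 ± 5.42 CPM in siRBM47 and 15.1 ± 0.256 CPM in control, and the phosphatase CTDSP1 averaged 120.1 ± 21.2 CPM in siRBM47 and 92.1 ± 23.7 CPM in control (SD, n = 3 each). Neither was called by edgeR with all libraries (adjusted p = 0.451 for SIAH1 and 0.469 for CTDSP1) or with control replicate 3 left out (adjusted p = 0.256 for SIAH1 and 0.468 for CTDSP1).

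Genes that cleave, traffic or glycosylate cadherins were split, with 19 tested of 20 listed, 0 called by edgeR or limma-voom and 1 by DESeq2, and 1 higher and 2 lower at an unadjusted p under 0.05. The median log2 fold change was -0.16, and -0.075 with control replicate 3 left out, where 3 were called higher and 2 lower. In all tested genes the shares were 4.42% by DESeq2, 16.1% at that unadjusted p, and 10.1% higher and 11.3% lower without that library (edgeR). PSENEN, a gamma-secretase subunit, was at 4.14, 5.83 and 4.08 CPM in siRBM47 replicates 1, 2 and 3, against 30.9, 21.1 and 5.27 CPM in control replicates 1, 2 and 3. Control replicate 3 lay among the siRBM47 libraries. The log2 fold change was -2.02 (SE 0.53, adjusted p = 0.120, edgeR), and -2.47 (SE 0.24, edgeR adjusted p = 2.07e-05) with that library left out. The metalloprotease ADAM15 averaged 44.4 ± 10.6 CPM in siRBM47 and 67.6 ± 3.29 CPM in control (SD, n = 3 each). The groups of ADAM15 did not overlap, and its log2 fold change was -0.61 (SE 0.21, adjusted p = 0.208, edgeR), or -0.65 (SE 0.19, edgeR adjusted p = 0.0283) with control replicate 3 left out.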
